A study of Danio rerio with 24 samples.

Results

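Out of 25432 genes in each table, 9 were followed through all 24 libraries as the motor neuron identity and cholinergic set. They are the transcription factor genes mnx1 (ENSDARG00000035984), isl2a (ENSDARG00000003971), isl2b (ENSDARG00000053499), lhx3 (ENSDARG00000003803) and lhx4 (ENSDARG00000039458). The cholinergic genes are chata (ENSDARG00000015854), slc18a3a (ENSDARG00000006356) and slc5a7a (ENSDARG00000074860), and the set is completed by the neurofilament gene nefma (ENSDARG00000021351). Members were taken by gene symbol. Of the 9 symbols 8 matched as written, and lhx3 is spelled LHX3 in the tables. In RefSeq's gene table for the assembly GRCz12tu, which is not the build of the deposited files, chata and slc18a3a are next to each other and nefma lies beside nefla. There LOC141377197 overlaps chata and LOC103909450 overlaps nefma, and isl2a with isl2b, lhx3 with lhx4 and nefma with nefmb are paralogs, so reads that fit both copies could be divided between them.

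The libraries were made from whole zebrafish embryos at 4 days post fertilization in 4 transgenic lines named smn1, tardbp, lin28a and sox9b. In each line, 3 libraries came from 3TG embryos, which carried the CRISPR-Q components with a guide RNA, and 3 from 2TG siblings, which carried the components with no guide. The smn1 line (guide against smn1) and the tardbp line (guide array against tardbp and tardbpl) used CRISPR-QKD for knockdown, and the lin28a and sox9b lines used CRISPR-Qa for transcriptional activation. Embryos of all 8 groups were raised at 28.5 °C and heated for 1 h at 2 and at 3 days post fertilization, which induces the driver QFvpr from an hsp70l promoter, so the 2TG embryos carry the driver and the heat treatment too. The labels do not say how many embryos went into a library or whether replicates came from separate clutches, so p-values measure only the spread between these libraries. The design asked how efficient and how specific the knockdown or activation was.

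Spinal motor neurons are specified by LIM-homeodomain factors of the Islet and Lhx families together with Mnx1, and they signal to muscle with acetylcholine. Choline is taken up by the transporter of slc5a7a, turned into acetylcholine by the choline acetyltransferase of chata, and loaded into vesicles by the transporter of slc18a3a. The medium neurofilament protein of nefma is part of the cytoskeleton of large axons. None of these genes is used by motor neurons alone: isl2b is well known from sensory neurons and retinal ganglion cells, lhx3 and lhx4 act in the pituitary and in spinal interneurons, mnx1 acts in the pancreas, and cholinergic neurons also occur in the brain and retina. In whole embryos fewer cells of a type and less RNA per cell cannot be told apart.

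Levels are given as TPM, which corrects for transcript length, so they can be compared between genes. The depth behind them is unknown. The targets differed between groups without overlap as deposited. The level of 3TG embryos was 58.6% of 2TG for smn1, 54.5% for tardbp and 53.1% for tardbpl, and it was 5.93-fold that of 2TG for lin28a and 1.98-fold for sox9b. In the tardbp line the 3TG libraries held 74.6, 80.1 and 48.3 TPM of tardbp and 117, 121 and 76.7 TPM of tardbpl. Its 2TG libraries held 109 to 146 TPM and 180 to 216 TPM. As deposited, 29.1% of all genes tested in that line also had 3TG below 2TG without overlap. Their median difference on the log2(TPM + 1) scale was −0.45 over all genes tested, so the target levels are read beside that shift. The targets were not rescaled for 3TG replicate 3 of that line. In the lin28a line lin28a was at 2.69, 8.41 and 3.16 TPM in 3TG and at 0.310 to 1.23 TPM in 2TG. Guide-free 2TG libraries of other lines held more lin28a than these 2TG libraries: 2.62 to 8.55 TPM in smn1, 4.90 to 8.19 TPM in tardbp and 1.70 to 11.2 TPM in sox9b. The 3TG levels of the lin28a line were thus above their own siblings but not above guide-free embryos of the other lines. The third tardbp and second lin28a 3TG libraries stand apart, as described next. Lists of markers for skeletal muscle, retina, epidermis, exocrine pancreas, glia and neurons, as whole embryos should hold, were detected, and no matched marker was at 0 in all 24 libraries. Some libraries stand apart. In tardbp 3TG replicate 3 the listed TPM sum to 77.8% of the nominal total, against 98.4% to 99.0% in the other 23, and 3 genes (zgc:158463, FO704772.3 and AL935186.10) hold 34.3% of that total, against 0.229% to 0.569% in the other 5 libraries of that line. In lin28a 3TG replicate 2 the 21 pan-neuronal genes sum to 1228 TPM, against 2728 to 2983 TPM in the other 5 libraries of its line. In tardbp 2TG replicate 1 the 14 retina genes sum to 417 TPM and the 12 exocrine pancreas genes to 28.6 TPM, both the lowest of all 24 libraries. Many results that rest on one of these libraries are given with and without it, or library by library. The test across lines in 2TG and the pooled knockdown fit are not given without tardbp 2TG replicate 1.

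All 9 genes passed the filter on low values in every line (a TPM of 1 or more in 3 or more libraries of the line). The most abundant were nefma, with a median of 25.7 TPM over 24 libraries (8.96 to 31.6), slc18a3a with 18.1 TPM (5.37 to 24.4) and isl2a with 16.2 TPM (9.67 to 20.7). A middle tier held chata at 12.7 TPM (3.40 to 20.9), lhx4 at 9.28 TPM (5.15 to 13.8) and isl2b at 9.18 TPM (3.57 to 15.7). The least abundant were lhx3 at 3.69 TPM (0.697 to 7.16), slc5a7a at 3.08 TPM (0.746 to 4.76) and mnx1 at 2.81 TPM (1.68 to 4.63). The choline transporter transcript was thus the scarcest of the cholinergic genes, and the vesicle transporter the most abundant, at 0.906 to 2.25 times the level of its neighbour chata within a library. Between the lowest and highest of the 8 group means, the span ran from 1.46-fold for slc18a3a to 2.04-fold for slc5a7a. When the group means of a gene are put in order, ranges of neighbours in that order were separate in 1 of 7 steps for lhx4 (sox9b 2TG above lin28a 2TG) and 1 of 7 for nefma (lin28a 2TG above smn1 3TG), and in 0 of 7 for each of the other 7 genes.

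**Figure D1:**
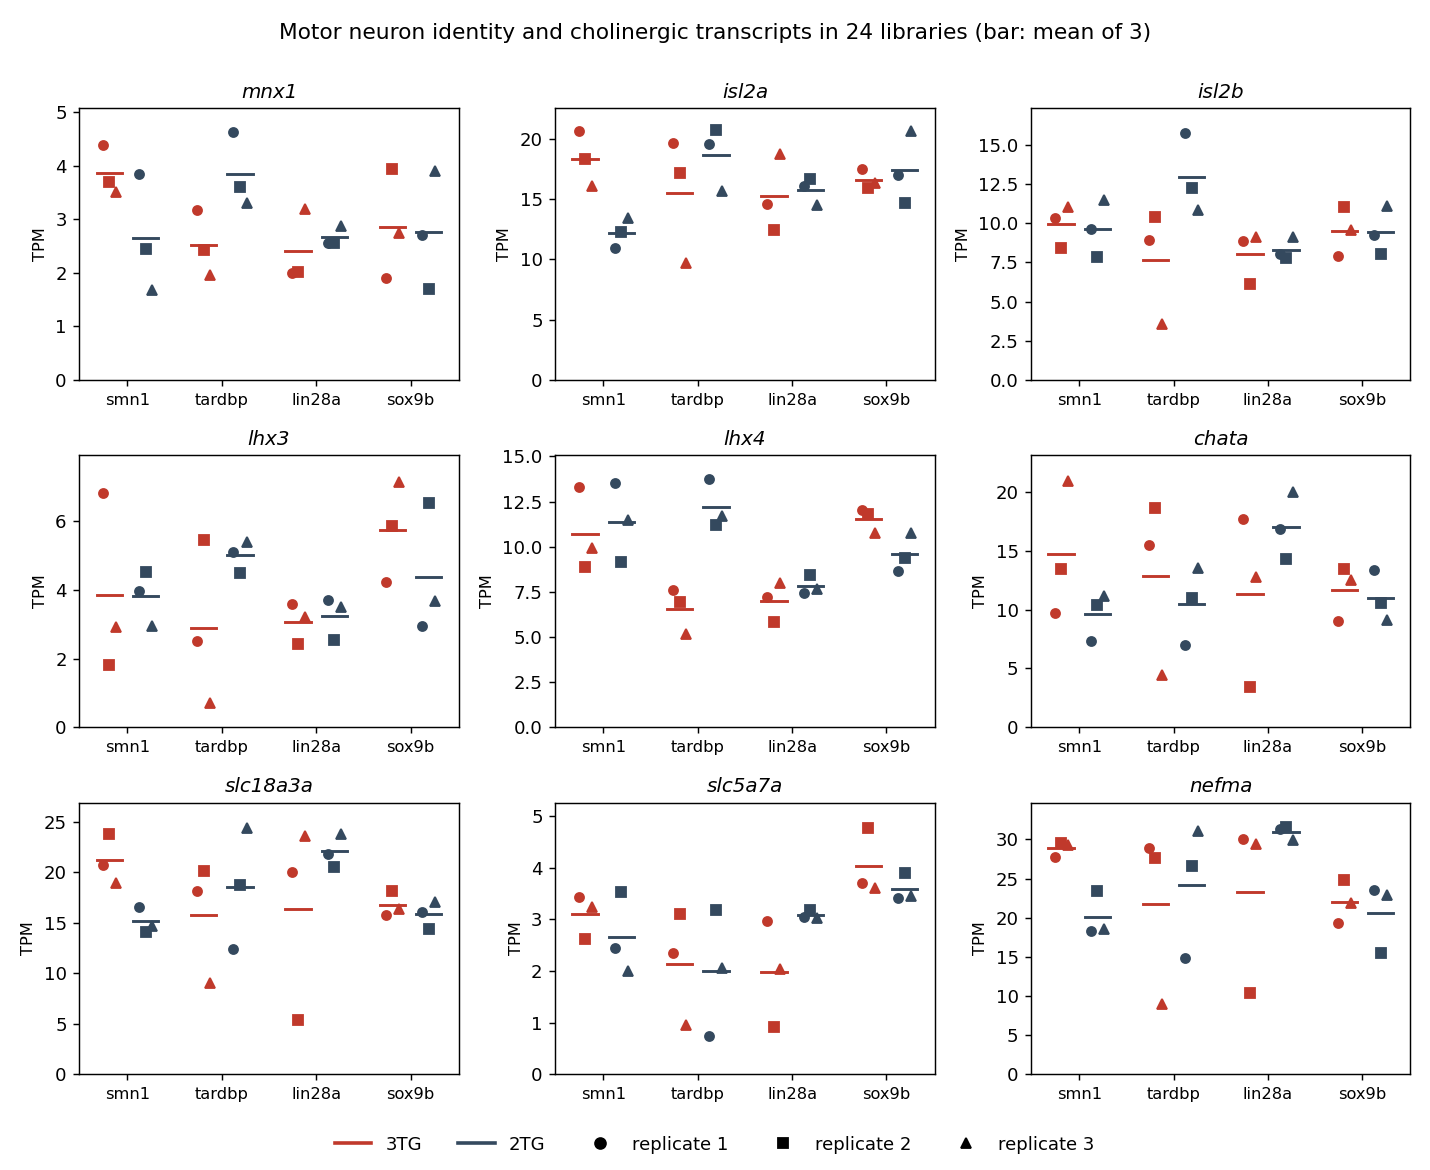
TPM of the 9 genes (one panel each, axis from 0) in 24 libraries, 3TG left and 2TG right within each line, with a marker shape for each replicate number and a bar for the mean of 3. In the smn1 line the 3TG points of isl2a, slc18a3a and nefma lie above all 2TG points, and in the lin28a line replicate 2 of 3TG lies far below the rest for chata, slc18a3a and nefma.

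In the smn1 line, whose guide targets the survival motor neuron transcript, most of the 9 genes were higher in 3TG than in 2TG embryos, by less than 1.6-fold, and no difference passed the test over all genes. The Islet factor isl2a had 20.6, 18.3 and 16.0 TPM in 3TG embryos, against 10.95, 12.3 and 13.4 TPM in 2TG embryos. All 3 knockdown libraries were above all 3 guide-free ones, at a ratio of means of 1.499. The vesicular acetylcholine transporter slc18a3a had 20.7, 23.8 and 19.0 TPM in 3TG, against 16.6, 14.1 and 14.7 TPM in 2TG, again without overlap and at a ratio of 1.40. The neurofilament gene nefma had 27.8, 29.5 and 29.3 TPM in 3TG, against 18.2, 23.5 and 18.6 TPM in 2TG. Its groups do not overlap either, and the 3TG libraries are closer together (28.9 ± 0.953 TPM in 3TG and 20.1 ± 2.92 TPM in 2TG, SD, n = 3 each).

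The other cholinergic genes of the smn1 line overlapped between groups. The enzyme gene chata had 9.71, 13.4 and 20.9 TPM in 3TG, against 7.35, 10.4 and 11.2 TPM in 2TG. Its ratio of means, 1.52, was the highest of the 9 genes, and it leaned on 3TG replicate 3. The choline transporter slc5a7a averaged 3.10 ± 0.424 TPM in 3TG and 2.66 ± 0.788 TPM in 2TG (SD, n = 3 each). Summed over the 3 cholinergic genes, the level was 33.9 to 43.1 TPM in 3TG, above the 26.4 to 28.1 TPM in 2TG. Among the remaining factors, mnx1 had 4.38, 3.69 and 3.52 TPM in 3TG, against 3.84, 2.44 and 1.68 TPM in 2TG, and 1 of the 2TG libraries lay within the range of 3TG. Differences below the SD were seen for isl2b (9.91 ± 1.36 TPM in 3TG and 9.64 ± 1.84 TPM in 2TG), lhx3 (3.85 ± 2.64 TPM in 3TG and 3.82 ± 0.799 TPM in 2TG) and lhx4 (10.7 ± 2.31 TPM in 3TG and 11.4 ± 2.17 TPM in 2TG; SD, n = 3 each). For lhx3 the 3TG libraries alone spanned 1.81 to 6.83 TPM, wider than any difference between the groups.

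Tested with limma on log2(TPM + 1), a scale that understates changes of low genes, isl2a differed by 0.54 (SE 0.195, adjusted p = 0.365), nefma by 0.51 (SE 0.189, adjusted p = 0.373) and slc18a3a by 0.46 (SE 0.189, adjusted p = 0.394). Adjustment was by Benjamini-Hochberg over all 19660 genes, so none of these was called. In the smn1 line 0 genes (0%) passed the adjusted threshold of 0.05, with a smallest adjusted p of 0.0692. At an unadjusted p under 0.05 stood 3 of the 9 members and 12.3% of all genes tested (2421). Groups did not overlap, with 3TG above, for 3 of 9 members and 7.96% of all genes, and with 3TG below for 0 of 9 members and 11.2% of all genes. By sign alone 7 of 9 members were higher in 3TG, against 45.2% of all genes, and 2 were lower, against 54.8%. The members' median difference was 0.45 and that of all genes −0.05, with 0.04 for the 5 factors and 0.46 for the 3 cholinergic genes. With 3TG replicate 3 or 2TG replicate 3 left out the members' median was 0.24 or 0.25, and without 3TG replicate 2 no member had an unadjusted p under 0.05.

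Other genes of the nervous system stood higher in smn1 3TG embryos as well. The summed level of the 21 pan-neuronal genes, none at 0 in any library, was 2987 to 3276 TPM in 3TG and 2347 to 2766 TPM in 2TG, with 18 of 21 genes higher by sign, 0 called and a median of 0.27. All 14 retina genes were higher by sign (0 called, median 0.86), with sums of 1853 to 3302 TPM in 3TG and 1430 to 1584 TPM in 2TG. Of these opn1lw1 and guca1d are at 0 in some library of the series. All 11 glial genes (median 0.56) and all 12 exocrine pancreas genes (median 1.81) were higher by sign too, with pancreas sums of 2156 to 20265 TPM in 3TG and 693 to 11611 TPM in 2TG. Among 22 tested genes of other spinal neuron classes 18 were higher by sign (0 called, median 0.21), beside 45.2% of all genes. The part these cell types have in the members' values was not tested. The smn1 table mixes 2 number formats: 3TG replicate 1 with the first and second 2TG replicates was written to 6 decimals, and the other 3 libraries to 6 significant digits. Within the first format (1 library of 3TG and 2 of 2TG) the difference of means was 0.78 for isl2a, 0.42 for slc18a3a and 0.41 for nefma, and within the second (2 of 3TG and 1 of 2TG) it was 0.33, 0.50 and 0.63. These 3 genes do not overlap between groups, which fixes the sign in both formats. For mnx1, chata and slc5a7a, which do overlap, the difference was positive in both. In contrast isl2b (0.23 and −0.23), lhx3 (0.58 and −0.25) and lhx4 (0.24 and −0.27) had opposite signs in the first and second formats. The tardbp table is mixed as well, with 2TG replicate 2 in 6 decimals and its other libraries in 6 significant digits. All lin28a libraries are in 6 significant digits and all sox9b libraries in 6 decimals, so comparisons between lines mix formats too.

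In the tardbp line, whose guides target both TDP-43 transcripts, the LIM and Islet factors were lower in 3TG than in 2TG as deposited, while the cholinergic genes showed no common direction. The LIM-homeodomain gene lhx4 had 7.57, 6.95 and 5.15 TPM in 3TG, against 13.8, 11.2 and 11.7 TPM in 2TG. Its 3 knockdown libraries were below all 3 guide-free ones, at a ratio of means of 0.537. The Islet gene isl2b had 8.93, 10.4 and 3.57 TPM in 3TG, against 15.7, 12.2 and 10.8 TPM in 2TG, a ratio of 0.591, and mnx1 had 3.17, 2.42 and 1.97 TPM in 3TG, against 4.63, 3.60 and 3.30 TPM in 2TG, a ratio of 0.655. Neither overlapped between groups. For lhx3, 2.51, 5.46 and 0.697 TPM in 3TG stood against 5.12, 4.495 and 5.41 TPM in 2TG, with the highest library of all 6 among the 3TG. isl2a overlapped more widely, with 19.7, 17.1 and 9.67 TPM in 3TG, against 19.6, 20.7 and 15.6 TPM in 2TG.

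In the same embryos chata had 15.5, 18.7 and 4.46 TPM in 3TG, against 6.95, 10.9 and 13.6 TPM in 2TG. As deposited, replicates 1 and 2 of 3TG were thus above every 2TG library and replicate 3 below every one. slc18a3a had 18.2, 20.1 and 8.98 TPM in 3TG, against 12.4, 18.7 and 24.4 TPM in 2TG, and nefma 28.8, 27.6 and 8.96 TPM in 3TG, against 14.9, 26.6 and 31.0 TPM in 2TG. slc5a7a, at 2.34, 3.10 and 0.956 TPM in 3TG, against 0.746, 3.18 and 2.06 TPM in 2TG, followed the same layout. For these 4 genes replicate 3 was the lowest of the 3TG libraries and replicate 1 the lowest of the 2TG libraries.

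In the limma fit of the tardbp line lhx4 differed by −0.82 (SE 0.399, adjusted p = 0.370), isl2b by −0.78 (SE 0.440, adjusted p = 0.402), lhx3 by −0.83 (SE 0.474, adjusted p = 0.402) and chata by 0.12 (SE 0.488, adjusted p = 0.899). No member was called, whereas 0.0103% of all genes were (2 of 19336, both lower). At an unadjusted p under 0.05 stood 0 of 9 members and 13.7% of all genes. Groups did not overlap, with 3TG below, for 3 of 9 members and 29.1% of all genes, a share near that of the members, and with 3TG above for 0 of 9 and 0.176%. By sign 7 of 9 members were lower, against 83% of all genes, and 2 were higher, against 17%. The median of all genes was −0.45, so values in this line are read relative to it. The members' median was −0.30, that of the factors −0.78 and that of the cholinergic genes 0.09.

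Much of this moved with the scaling. After median centring of libraries lhx4 differed by −0.38, isl2b by −0.34, lhx3 by −0.39 and mnx1 by −0.03, while isl2a (0.14), slc18a3a (0.20) and nefma (0.20) took the opposite sign and chata and slc5a7a stood at 0.56 and 0.53. By sign, 5 of 9 members were then higher in 3TG, in place of 2, and the smallest adjusted p among members was 0.501 (chata), with 0 genes called of all tested. Rescaled without the 3 abundant genes, 3TG replicate 3 held 11.8 TPM of lhx4, within the 2TG range of 11.4 to 14.0 TPM, and 4.52 TPM of mnx1, within 3.37 to 4.70 TPM. On that scale isl2b alone did not overlap between groups, with 8.20 to 10.55 TPM in 3TG and 11.05 to 15.9 TPM in 2TG. The share of all genes without overlap on that scale was not computed, so isl2b cannot be set against it. With 3TG replicate 3 left out, lhx4 differed by −0.67, isl2b by −0.37 and chata by 0.69 as deposited, beside a median of −0.16 for all genes. In 1 limma fit over all 24 libraries, which pools the spread of all lines, 3108 of 21099 genes and 1 of 9 members were called. The member was lhx4 (−0.82, adjusted p = 0.0196). With centring in that fit 0 genes were called, and lhx4 stood at −0.39 (adjusted p = 0.318).

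Library 3TG replicate 3 was the lowest of the 6 for 8 of 9 members and for 78.3% of all genes tested in the tardbp line. Library 2TG replicate 1 stood out in another way. It held 20.1 TPM of summed cholinergic genes and 58.8 TPM of summed factors, the highest factor sum of all 24 libraries, and its ratio of cholinergic to factor transcripts, 0.342, compares with 0.629 to 0.989 in the other 5. Its pan-neuronal sum was 2038 TPM, between 1170 TPM in 3TG replicate 3 and 2826 to 3152 TPM in the other 4 libraries. With 2TG replicate 1 left out, chata (−0.12) and slc5a7a (−0.26) changed sign as deposited, and the members' median was −0.49. The median of all genes was then −0.51, with 89.3% of them lower.

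**Figure D2:**
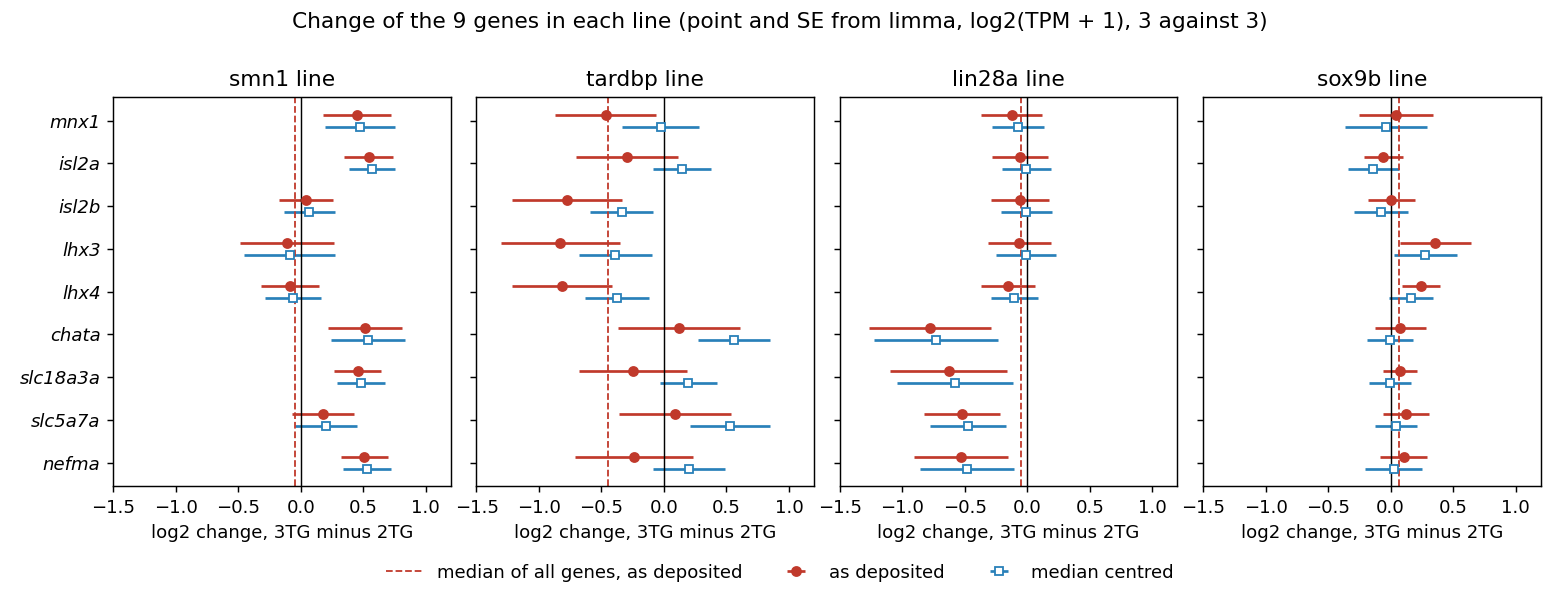
Difference of 3TG minus 2TG on the log2(TPM + 1) scale (x axis) for each gene (y axis) in the 4 lines, with limma's SE as bars, as deposited (filled) and after median centring of libraries (open). The dashed line is the median of all genes as deposited, −0.45 in the tardbp line, where centring moves the factors toward 0 and the cholinergic genes above it.

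In the lin28a line, built to activate lin28a, the cholinergic genes and nefma were lower on average in 3TG than in 2TG, most of it in a single library. chata had 17.7, 3.40 and 12.8 TPM in 3TG, against 16.8, 14.3 and 20.03 TPM in 2TG. slc18a3a had 19.995, 5.37 and 23.6 TPM in 3TG, against 21.8, 20.5 and 23.8 TPM in 2TG. nefma had 30.0, 10.4 and 29.4 TPM in 3TG, against 31.3, 31.6 and 29.9 TPM in 2TG. In each the second 3TG library was far below the other 5, which ran from 12.8 to 20.03 TPM for chata, 19.995 to 23.8 TPM for slc18a3a and 29.4 to 31.6 TPM for nefma. The choline transporter slc5a7a was at 2.97, 0.907 and 2.04 TPM in 3TG, against 3.05, 3.18 and 3.03 TPM in 2TG, so that here the groups did not overlap, at a ratio of means of 0.639.

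The factors in that second library were closer to the other libraries. There isl2a had 12.4 TPM, isl2b 6.104 TPM, lhx4 5.81 TPM, lhx3 2.41 TPM and mnx1 2.01 TPM, which is 71.1% to 77.2% of the mean of the other 5 libraries. The same share was 20.8% for chata, 24.5% for slc18a3a, 31.8% for slc5a7a and 34.2% for nefma. Summed, the cholinergic genes had 9.68 TPM there and 38.0 to 46.9 TPM in the other 5, while the factors had 28.8 TPM there and 36.3 to 42.3 TPM in the other 5. The library was the lowest of 6 for 8 of 9 members and 20 of 21 pan-neuronal genes, and for 35.4% of all genes tested. Its summed markers were 1310 TPM for retina (3663 to 3993 TPM in the other 5), 525 TPM for exocrine pancreas (3783 to 19835 TPM) and 62619 TPM for skeletal muscle (64368 to 74532 TPM). Genes of other spinal neuron classes summed to 225 TPM there (477 to 502 TPM in the other 5). Some sums lay inside the range of the other 5. Other motor neuron specification factors had 267 TPM (245 to 293 TPM) and motor axon guidance genes 349 TPM (309 to 385 TPM). Epidermis had 10931 TPM (9431 to 12807 TPM) and muscle genes of the neuromuscular junction 119 TPM (112 to 146 TPM). Below the range were neurofilament and axon growth genes, at 979 TPM (2833 to 3096 TPM). So were glia, at 829 TPM (1241 to 1450 TPM), and other cholinergic genes, at 92.6 TPM (140 to 174 TPM). This library also held the most lin28a of its line, 8.41 TPM against 2.69 and 3.16 TPM in the other 3TG libraries. Whether these measures bear on the members' levels was not tested.

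The limma differences of the lin28a line were −0.78 for chata (SE 0.488), −0.63 for slc18a3a (SE 0.467), −0.53 for nefma (SE 0.377) and −0.52 for slc5a7a (SE 0.306), with an adjusted p of 0.980 for each. The 5 factors lay between −0.15 (lhx4) and −0.06. With 3TG replicate 2 left out the values were −0.16 for chata, −0.02 for slc18a3a, −0.06 for nefma and −0.23 for slc5a7a. isl2a, isl2b and lhx3 then took the opposite sign (0.07, 0.11 and 0.06). In this line 0% of all genes were called, 0 of 9 members and 1.78% of all genes (349) had an unadjusted p under 0.05, and the groups did not overlap, with 3TG below, for 1 of 9 members and 4.06% of all genes, or with 3TG above for 0 of 9 and 2.5%. All 9 members were lower by sign, against 57% of all genes (43% were higher), with a median of −0.15 beside −0.05 for all genes. Without 3TG replicate 2 the count was 6 of 9 and the median −0.04.

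In the sox9b line, built to activate sox9b, levels of the 9 genes were close in both groups. lhx4 had 12.02, 11.8 and 10.8 TPM in 3TG, against 8.67, 9.39 and 10.7 TPM in 2TG, the one member without overlap, at a ratio of means of 1.201 and with the nearest libraries of the groups almost equal. lhx3 had 4.24, 5.86 and 7.16 TPM in 3TG, against 2.95, 6.53 and 3.68 TPM in 2TG, which overlap. chata averaged 11.7 ± 2.33 TPM in 3TG and 11.01 ± 2.17 TPM in 2TG, slc18a3a 16.7 ± 1.22 TPM in 3TG and 15.8 ± 1.35 TPM in 2TG, and slc5a7a 4.02 ± 0.641 TPM in 3TG and 3.59 ± 0.271 TPM in 2TG (SD, n = 3 each). nefma, at 22.0 ± 2.73 TPM in 3TG and 20.6 ± 4.51 TPM in 2TG, and isl2a, at 16.6 ± 0.815 TPM in 3TG and 17.4 ± 3.01 TPM in 2TG, differed by less than the SD of the 2TG libraries. So did isl2b, with 7.91 to 11.04 TPM in 3TG and 8.03 to 11.1 TPM in 2TG, and mnx1, with 1.90 to 3.94 TPM in 3TG and 1.69 to 3.91 TPM in 2TG.

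The limma difference in the sox9b line was 0.24 for lhx4 (SE 0.151) and 0.36 for lhx3 (SE 0.285), and the other 7 members lay between −0.06 and 0.13. Adjusted p was 1.00 for each member when rounded, 0% of all genes were called, and 0 of 9 members and 1.22% of all genes (239) had an unadjusted p under 0.05. Groups did not overlap, with 3TG above, for 1 of 9 members and 3.6% of all genes, and with 3TG below for 0 of 9 and 1.15%. By sign 8 of 9 members were higher, against 66.9% of all genes (33.1% were lower), and the medians were 0.08 and 0.07. After centring 4 of 9 were higher.

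Pooling lines gave no call either. With the line as a covariate, the 2 knockdown lines together gave differences of 0.32 for chata (adjusted p = 0.543), 0.12 for isl2a (adjusted p = 0.769) and −0.45 for lhx4 (adjusted p = 0.221). Of 20419 genes 0% were called there, and 0 of 9 members and 23.4% of all genes had an unadjusted p under 0.05. After centring 3 of 9 members and 22.1% of all genes did. The 3 were chata (0.54), isl2a (0.35) and slc18a3a (0.33), with an adjusted p of 0.173 to 0.196. Without tardbp 3TG replicate 3, 31 genes were called, none of them a member. Over all 4 lines the members lay between −0.20 (lhx4) and 0.03 (isl2a), with 0% of 21099 genes called and 12.3% at an unadjusted p under 0.05.

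Whether the change of a member differed between lines was tested directly, in 1 limma fit with 6 pairs of lines. No gene was called in any pair (0% in each). Of 9 members 4 had an unadjusted p under 0.05 for smn1 minus tardbp (10.6% of all genes did), 1 for smn1 minus lin28a (7.41%), 0 for smn1 minus sox9b (3.37%), 1 for tardbp minus lin28a (19.2%), 2 for tardbp minus sox9b (20.8%) and 0 for lin28a minus sox9b (0.991%). The 4 of the first pair were mnx1 (0.92), isl2a (0.84), isl2b (0.82) and lhx4 (0.73), with adjusted p from 0.420 to 0.466. After centring the counts were 0 of 9 members for smn1 minus tardbp (5.38% of all genes), 3 for smn1 minus lin28a (12.5%), 1 for smn1 minus sox9b (4.82%), 2 for tardbp minus lin28a (13.1%), 0 for tardbp minus sox9b (6.42%) and 0 for lin28a minus sox9b (1.55%).

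The smallest adjusted p belonged to lhx4 in tardbp minus sox9b (−1.06, SE 0.295, adjusted p = 0.165), which became −0.56 after centring (adjusted p = 0.724). After centring the members past the unadjusted threshold were chata, slc18a3a and nefma for smn1 minus lin28a (1.26, 1.05 and 1.00, adjusted p from 0.378 to 0.382), isl2a for smn1 minus sox9b (0.69), and chata and slc5a7a for tardbp minus lin28a (1.27 and 0.98). The pairs with lin28a hold 3TG replicate 2 of that line. Without that library the centred values for smn1 minus lin28a were 0.65 for chata, 0.45 for slc18a3a and 0.55 for nefma, those for tardbp minus lin28a were 0.67 for chata and 0.72 for slc5a7a, and none of these 5 had an unadjusted p under 0.05.

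Guide-free embryos of the 4 lines were compared with a limma F-test over the 2TG libraries alone, in which line and batch cannot be told apart. No member was called, while 0.25% of all genes were (51 of 20425), and 0.431% after centring. At an unadjusted p under 0.05 stood 3 of 9 members and 19.9% of all genes. The unadjusted p was 0.0339 for isl2a, which averaged 12.2 ± 1.22 TPM in smn1, 18.6 ± 2.64 TPM in tardbp, 15.7 ± 1.14 TPM in lin28a and 17.4 ± 3.01 TPM in sox9b embryos. It was 0.0333 for lhx4 (11.4 ± 2.17 TPM in smn1 2TG, 12.2 ± 1.36 TPM in tardbp 2TG, 7.84 ± 0.549 TPM in lin28a 2TG, 9.60 ± 1.05 TPM in sox9b 2TG). For chata it was 0.0367 (9.65 ± 2.03 TPM in smn1 2TG, 10.49 ± 3.33 TPM in tardbp 2TG, 17.1 ± 2.86 TPM in lin28a 2TG, 11.01 ± 2.17 TPM in sox9b 2TG). Adjusted p in limma were 0.218 to 0.224. After centring chata alone of the 9 kept an unadjusted p under 0.05 (adjusted p = 0.150), beside 20.2% of all genes. The smn1 2TG libraries were the lowest group for isl2a, chata, slc18a3a and nefma. For isl2a, smn1 3TG embryos (16.0 to 20.6 TPM) were inside the range of 2TG embryos of the other lines (14.5 to 20.7 TPM). The smn1 2TG embryos (10.95 to 13.4 TPM) were below it. For chata (7.35 to 11.2 TPM), slc18a3a (14.1 to 16.6 TPM) and nefma (18.2 to 23.5 TPM) smn1 2TG embryos were inside the matching range. Those ranges were, in the same order, 6.95 to 20.03 TPM, 12.4 to 24.4 TPM and 14.9 to 31.6 TPM. Their lower ends all come from tardbp 2TG replicate 1, which stands apart. Without that library the lower ends were 9.13, 14.4 and 15.4 TPM. Then smn1 2TG replicate 1 lay below the range for chata and replicate 2 for slc18a3a.

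How the 9 genes varied together was described over libraries, with each library centred on its median and each gene's line mean subtracted (n = 24 libraries, in which the genes share embryos and scaling). Pairs among chata, slc18a3a, slc5a7a and nefma had Pearson's r from 0.66 to 0.89 (6 pairs, median 0.76). Pairs among the 5 factors had r from −0.20 (isl2a with lhx3) to 0.62 (mnx1 with isl2a) (10 pairs, median 0.34), and the 20 pairs across had r from −0.28 to 0.46 (median 0.11). The paralogs lhx3 and lhx4 had r = 0.21, and isl2a and isl2b 0.39.

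Much of this order rests on the 3 libraries that stand apart. Without them, and with line means taken over the 21 libraries kept, r was 0.13 to 0.78 among chata, slc18a3a, slc5a7a and nefma (median 0.43), −0.25 to 0.59 among the factors (median 0.29) and −0.56 to 0.74 across (median 0.22). On those 21 libraries the highest pairs were slc18a3a with nefma (0.78), mnx1 with slc18a3a (0.74) and isl2a with nefma (0.71), and the lowest was lhx4 with chata (−0.56).

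**Figure D3:**
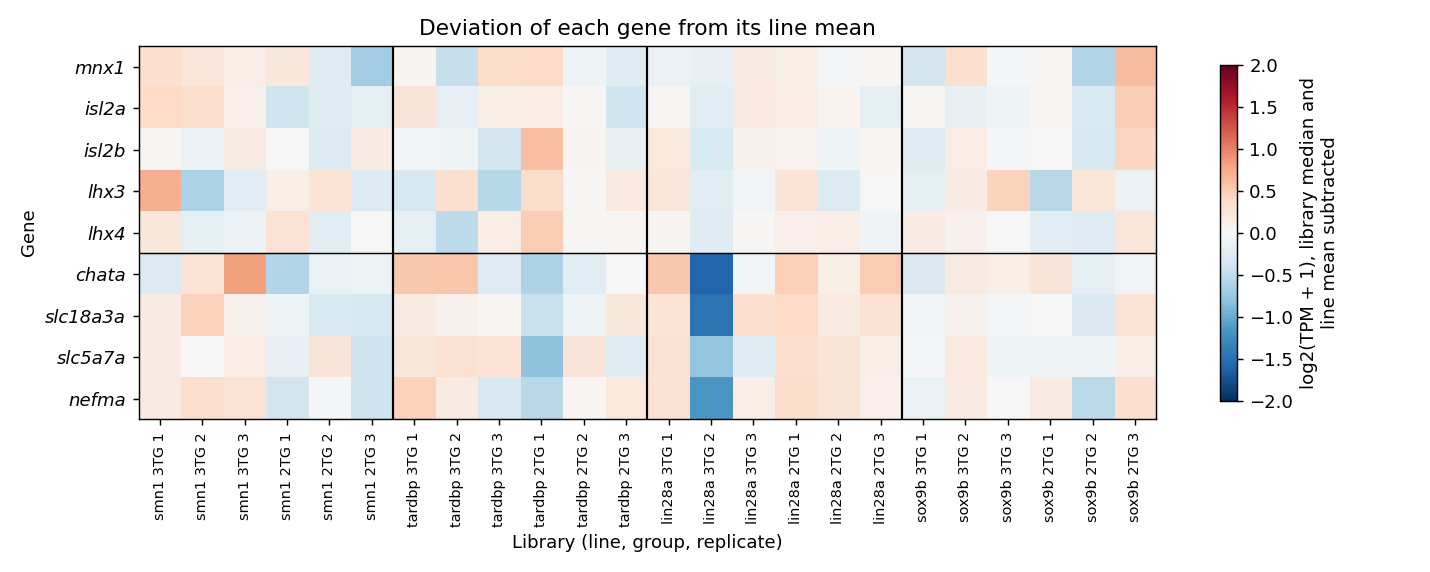
Deviation of each gene (rows) in each library (columns, 3TG before 2TG in each line) from its line mean, in log2(TPM + 1) after median centring, red above and blue below. The 4 lower rows (chata, slc18a3a, slc5a7a, nefma) are below their line mean together in lin28a 3TG replicate 2 (−0.78 to −1.58) and tardbp 2TG replicate 1, where the upper 5 rows are below it by less (−0.16 to −0.30) in the first of these libraries and above it in the second.

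Against the mean of the 21 pan-neuronal genes on the same scale, r was 0.93 for slc18a3a, 0.92 for nefma, 0.85 for chata and 0.77 for slc5a7a (Spearman's rho 0.79, 0.82, 0.79 and 0.54). The factors had r from −0.08 (lhx4) to 0.31 (isl2a). Without the 2 libraries farthest out, lin28a 3TG replicate 2 and tardbp 2TG replicate 1, the ranges were 0.49 to 0.83 for the cholinergic genes with nefma and −0.21 to 0.37 for the factors (n = 22, line means as before). Without those and tardbp 3TG replicate 3, and with line means taken over the 21 libraries kept, r was 0.53 to 0.79 for the cholinergic genes with nefma, 0.60 for mnx1 and 0.53 for isl2a, while isl2b (0.020), lhx3 (−0.021) and lhx4 (−0.18) stayed near or below 0. With line means over all 24 libraries, mnx1 had 0.42 and isl2a 0.43 on these 21 (Spearman's rho 0.21 and 0.44). When smn1 2TG replicate 3 and sox9b 2TG replicate 2 were also left out, mnx1 had −0.04 and isl2a 0.33 (n = 19). The cholinergic genes with nefma then had 0.40 to 0.71. Subtracting group means in place of line means gave 0.71 to 0.91 for the cholinergic genes with nefma and −0.06 to 0.20 for the factors (n = 24). The ratio of summed cholinergic to summed factor transcripts ran from 0.336 in lin28a 3TG replicate 2 to 1.24 in lin28a 2TG replicate 3. It was 0.858 ± 0.214 in 3TG and 0.695 ± 0.0739 in 2TG of smn1, and 0.845 ± 0.153 in 3TG and 0.608 ± 0.257 in 2TG of tardbp. It was 0.789 ± 0.406 in 3TG and 1.12 ± 0.123 in 2TG of lin28a, and 0.700 ± 0.0470 in 3TG and 0.706 ± 0.110 in 2TG of sox9b (SD, n = 3 each). Groups overlapped in every line. The lin28a 3TG group holds replicate 2 (0.336) and the tardbp 2TG group replicate 1 (0.342), and group means without them are not given.

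**Figure D4:**
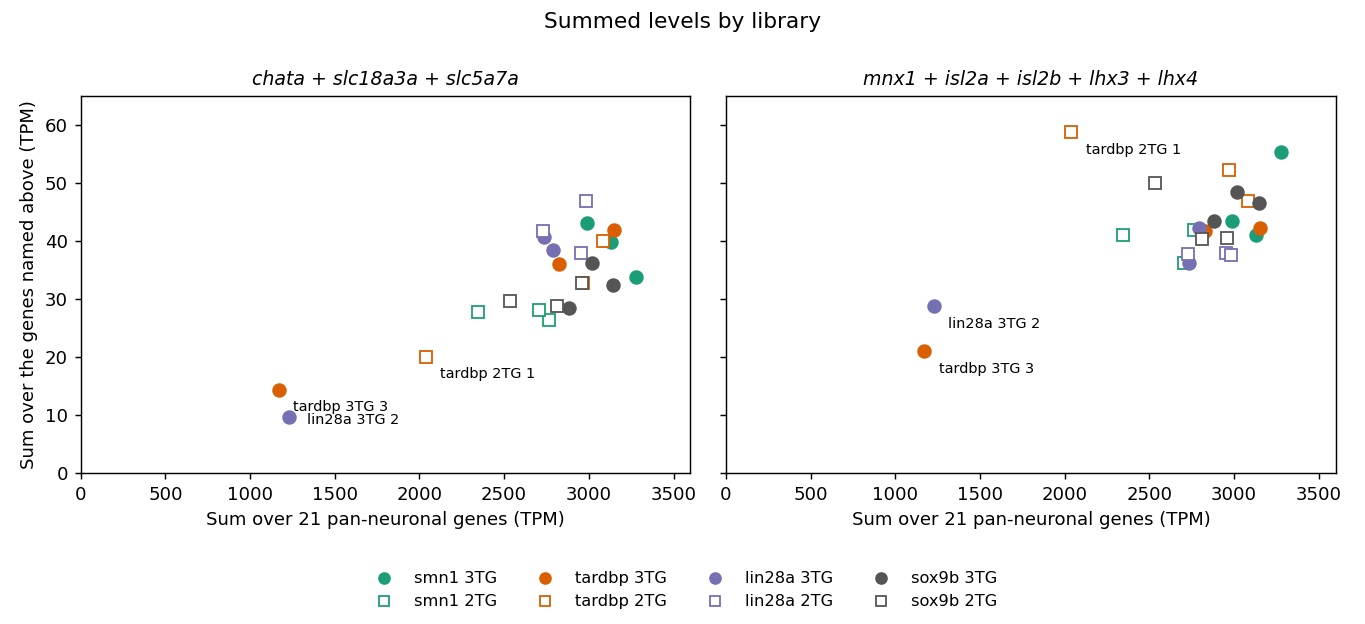
Summed TPM of the 3 cholinergic genes (left) and of the 5 transcription factors (right) against the summed TPM of 21 pan-neuronal genes, one point a library, filled for 3TG and open for 2TG. Cholinergic sums are lowest in lin28a 3TG replicate 2 (9.68 TPM), tardbp 3TG replicate 3 (14.4 TPM) and tardbp 2TG replicate 1 (20.1 TPM), and the last of these has the highest factor sum, 58.8 TPM.

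The genes whose pattern was most like the mean of the 9, among 19355 genes and over the same 24 libraries, were tfap2b (r = 0.91), cplx2l (0.90), vsnl1a (0.90), lrrc4.2 (0.89), si:dkey-56f14.4 (0.89), nefmb (0.88), stmn2a (0.88) and tubb2 (0.88). Without the 3 libraries that stand apart the r of these 8 genes was 0.71 (stmn2a) to 0.90 (vsnl1a) (n = 21). The genes were picked on libraries that include these 21 and were not ranked again, so these r are no separate check. The members themselves had r from 0.22 (lhx3) to 0.83 (slc18a3a) with that mean, of which each is a part. nefmb, paralog of nefma, had 3.48 TPM in lin28a 3TG replicate 2 against 28.3 to 31.7 TPM in the other 5 libraries of that line. cplx2l, a complexin gene of neurotransmitter release, had 16.2 TPM there against 76.6 to 97.0 TPM. stmn2a, a stathmin gene of growing axons, had 22.9 TPM there against 74.1 to 87.6 TPM. That library was among those on which these genes were picked.

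The wider list of motor neuron specification factors gave no call. Of 21 listed factors 19 were in the tables and 18 were tested in each line, with 0 called in any. By sign 13 were higher and 5 lower in smn1 3TG (median 0.16), beside 45.2% of all genes higher. In tardbp 1 was higher and 17 lower (−0.71, against −0.45 for all genes, and −0.27 after centring), beside 83% of all genes lower. Without 3TG replicate 3 of tardbp 16 were lower (−0.44), beside 62.9% of all genes (−0.16). In lin28a 7 were higher and 11 lower (−0.05, and 9 and 9 without 3TG replicate 2), beside 57% lower. In sox9b 13 were higher and 5 lower (0.11), beside 66.9% higher. The most abundant were ldb1a, a cofactor of LIM-homeodomain proteins, isl1, an Islet factor of motor and sensory neurons, lmo4b and foxp1a. In the tardbp line ldb1a averaged 40.4 ± 14.7 TPM in 3TG and 70.2 ± 7.70 TPM in 2TG, and isl1 31.8 ± 10.2 TPM in 3TG and 55.5 ± 7.98 TPM in 2TG (SD, n = 3 each). The 3TG libraries had 46.7, 50.9 and 23.6 TPM of ldb1a and 40.7, 34.0 and 20.8 TPM of isl1, the last of each in the library that stands apart. The 2TG ranges were 61.6 to 76.5 TPM and 46.5 to 61.9 TPM. As deposited, 29.1% of all genes in this line had 3TG below 2TG without overlap, and neither gene was rescaled for that library. In smn1 embryos isl1 averaged 40.9 ± 8.999 TPM in 3TG and 45.9 ± 7.79 TPM in 2TG, a difference below the SD.

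Of 20 further genes of cholinergic transmission 15 were in the tables and 12 or 13 were tested, again with 0 called. By sign, 10 of 12 were lower in lin28a 3TG (median −0.28 as deposited), beside 57% of all genes (−0.05). Without 3TG replicate 2 again 10 of 12 were lower (−0.08), beside 56.2% of all genes (−0.03). In tardbp 3TG 10 of 12 were lower, a share like the 83% of all genes, with a median of −0.36 as deposited and 0.09 after centring. In smn1 9 of 13 were higher by sign (0.12), beside 45.2% of all genes, and in sox9b 12 of 13 (0.16), beside 66.9%. The acetylcholinesterase gene ache, whose product breaks the transmitter down at the synapse, averaged 59.8 ± 13.3 TPM in 3TG and 50.1 ± 1.29 TPM in 2TG of smn1, and 42.0 ± 20.6 TPM in 3TG and 60.6 ± 6.31 TPM in 2TG of lin28a, where the 3TG libraries had 58.3, 18.8 and 48.8 TPM. The choline transporter-like gene slc44a1a averaged 7.01 ± 1.13 TPM in 3TG and 15.7 ± 2.73 TPM in 2TG of the tardbp line (−1.06, SE 0.398, adjusted p = 0.339 in limma), where the groups' means differed by more than their SD. Its 3TG libraries had 7.85, 7.46 and 5.72 TPM, the last in the library that stands apart, against 14.0 to 18.9 TPM in 2TG. As deposited, groups separated in this direction for 29.1% of all genes of the line, with a median of −0.45 for all genes. slc44a1a was not rescaled for that library.

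Of 24 neurofilament and axon growth genes 23 were tested. All 23 were lower by sign in lin28a 3TG (median −0.51), as were all 21 pan-neuronal genes (−0.52), beside 57% of all genes. Without 3TG replicate 2 the counts were 13 of 23 (median −0.02) and 17 of 21 (−0.07), beside 56.2% of all genes. In smn1 3TG 17 of the 23 were higher by sign (0.29), beside 45.2% of all genes, and 0 were called in any line. In tardbp 3TG 18 of the 23 were lower by sign, beside 83% of all genes. Their median was −0.41, against −0.45 for all genes, and 0.03 after centring. Without 3TG replicate 3 of tardbp 12 of the 23 were lower (−0.05), beside 62.9% of all genes. tubb2b, a neuronal tubulin, averaged 293 ± 67.5 TPM in 3TG and 762 ± 176.8 TPM in 2TG of tardbp (−1.38, SE 0.422, adjusted p = 0.330 in limma), and 498 ± 200.1 TPM in 3TG and 517 ± 63.7 TPM in 2TG of smn1. In tardbp its 3TG libraries had 370, 256 and 251 TPM, the last in the library that stands apart, against 657 to 966 TPM in 2TG. This separation as deposited was shared by 29.1% of all genes of the line, with a median of −0.45 for all genes. tubb2b was not rescaled for that library. Of 18 tested genes for guidance and trophic support of motor axons, 17 were higher by sign in smn1 3TG (median 0.32), beside 45.2% of all genes. In tardbp 17 were lower (−0.39, but 0.05 after centring), beside 83% of all genes. Without 3TG replicate 3 of tardbp 14 were lower (−0.11), beside 62.9%. In lin28a 10 of 18 were higher (0.04, and 8 of 18 and −0.01 without 3TG replicate 2), beside 43% of all genes. On the receiving side of the synapse, 8 of 9 tested muscle genes of the neuromuscular junction were higher by sign in smn1 3TG. Their median was 0.19, and 45.2% of all genes were higher. In lin28a 7 of 9 were lower (−0.10), beside 57% of all genes. Without 3TG replicate 2 it was 4 of 9, beside 56.2%, and 0 were called in either line. The acetylcholine receptor subunit chrne averaged 19.1 ± 7.25 TPM in 3TG and 10.96 ± 1.80 TPM in 2TG of smn1 (adjusted p = 0.412 in limma), and chrna1 42.8 ± 1.21 TPM in 3TG and 37.4 ± 1.34 TPM in 2TG (adjusted p = 0.625 in limma).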

How the data were processed

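The values analysed are TPM per gene (transcript abundance scaled for length and library), deposited by the authors in 1 table per line, each with 25432 genes. The submitters' processing notes name Trimmomatic 0.39, STAR 2.7.10b and Salmon 1.10.1 and the build GRCz11 (danRer11), without roles or order. TPM keeps no depth, so no interval from read counts can be given.

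Each line was tested with limma 3.58.1 in R 4.3.3 on log2(TPM + 1), 3TG against 2TG, for genes with 1 TPM in at least 3 libraries of the line. The tests were two-sided with a trended variance prior, and Benjamini-Hochberg adjustment ran over all genes tested (threshold 0.05). An exact permutation test of 3 against 3 libraries cannot go below p = 0.1. Pooled fits used the line as a covariate, and the fit of differences between lines used 8 group means. The fits were also run on simulated data, but the settings and outcome are not given here, so that run lends these results no weight. Tables and plots used pandas 2.3.3, scipy 1.17.1 and matplotlib 3.10.9.

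The 9 members and the gene lists were chosen with earlier results of these data known. Example genes are the list members of highest mean TPM, and the most alike genes are the 8 of highest r. Gene names were matched without regard to letter case. All 9 gene IDs were found in a gene name table and all 9 symbols in RefSeq's GRCz12tu table. The coordinates of the latter were used only to name neighbouring and overlapping genes. Sequences were not analysed here. Alternatives covered the pseudocount, the filter, scaling, the variance prior, a replicate block, a fit over all 24 libraries and each library left out. Centring with a library left out or in the 24-library fit, values by number format, rescaling without the 3 abundant genes, gene lists and differences between lines without a library that stands apart, and correlations on group means or fewer libraries were chosen after seeing the data.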

Additional observations from a re-analysis of the deposited data

Results flagged for a closer look

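The change of lhx4 ran in opposite directions in 2 lines. All 3 3TG libraries of the tardbp line were below all 2TG libraries of that line, as for 29.1% of all genes, and all 3 3TG libraries of the sox9b line were above theirs, as for 3.6% of all genes. Rescaled without the 3 abundant genes of tardbp 3TG replicate 3, the tardbp groups overlapped (7.05 to 11.8 TPM in 3TG and 11.4 to 14.0 TPM in 2TG). The difference of the changes, tardbp minus sox9b, was −1.06 on the log2(TPM + 1) scale (SE 0.295) and did not pass the test (adjusted p = 0.165 in limma). After median centring it was −0.56 (adjusted p = 0.724).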

How the results depend on the processing

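No member was called in any line, and among 746 alternatives over 54 member values 661 kept direction and side of the threshold, 84 took the opposite sign and 1 (lhx4 in tardbp, fit over all 24 libraries) passed it. In the tardbp line 2 genes were called as reported. The count was 0 with a pseudocount of 0.1, with no filter, with median centring and with quantile normalization. It was also 0 with rescaling to totals without the 20 most abundant and the mitochondrial genes. With centring in the replicate block or in the 24-library fit it was 0 too. The count was 28 with the replicate block alone and 3108 in the 24-library fit, and 0 to 166 with a library left out (50 with centring without 3TG replicate 3, and 0 with centring without 2TG replicate 1). In the smn1 line, with 0 called as reported, 5 were called with an untrended prior, 1 in the 24-library fit with centring, and 0 to 2 with a library left out. The members' median there was 0.22 with a pseudocount of 5 and 0.24 to 0.41 with a library left out. The pooled knockdown lines gave 31 calls without tardbp 3TG replicate 3. Across lines in 2TG, 88 genes were called with centring and 93 with a pseudocount of 5. For smn1 minus tardbp 1 gene was called with a pseudocount of 0.1. For tardbp minus sox9b 1 was called with a pseudocount of 0.1, 1 with 5, and 0 to 2 with a library left out.

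Median centring, with or without the replicate block, turned the sign of isl2a (0.14), slc18a3a (0.20) and nefma (0.20) in tardbp, and of mnx1 (−0.037), isl2b (−0.074), chata (−0.0037) and slc18a3a (−0.0051) in sox9b. The 24-library fit with centring gave 0.13, 0.18 and 0.18 for the same genes in tardbp and −0.035, −0.072, −0.0015 and −0.0029 in sox9b. Quantile normalization gave 0.21 for isl2a, 0.25 for slc18a3a and 0.25 for nefma in tardbp, 0.011 for isl2b and 0.034 for lhx3 in lin28a, and −0.050 for mnx1 and −0.066 for isl2b in sox9b. Rescaling to totals without the 20 most abundant and the mitochondrial genes gave 0.092 for isl2a, 0.14 for slc18a3a and 0.15 for nefma in tardbp. In the pooled fits centring gave 0.22 for mnx1 in the knockdown lines, and over 4 lines 0.077 for mnx1, 0.084 for chata, 0.016 for slc18a3a, 0.070 for slc5a7a and 0.062 for nefma. A pseudocount of 5 gave 0.0087 for chata over 4 lines. Centring without tardbp 3TG replicate 3 gave 0.12 for isl2a, 0.22 for slc18a3a and 0.41 for nefma, and without tardbp 2TG replicate 1 it gave 0.16 for mnx1, 0.25 for isl2a and 0.021 for slc18a3a. Centring without lin28a 3TG replicate 2 gave 0.10 for isl2a, 0.14 for isl2b, 0.091 for lhx3 and 0.014 for slc18a3a. Within a fit, median centring moves the difference of every gene by the same amount, which the library medians set. Why those medians differ, and the cause of the other turns of sign, were not tested.

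With each library left out in turn, these values took both signs or the sign opposite to the reported one. In smn1 they ran from −0.087 to 0.17 for isl2b, −0.52 to 0.22 for lhx3 and −0.24 to 0.036 for lhx4. In tardbp they ran from −0.23 to 0.69 for chata, −0.49 to 0.092 for slc18a3a, −0.26 to 0.39 for slc5a7a and −0.54 to 0.28 for nefma. In lin28a they ran from −0.21 to 0.070 for isl2a, −0.15 to 0.11 for isl2b and −0.19 to 0.060 for lhx3. In sox9b they ran from −0.18 to 0.26 for mnx1, −0.17 to 0.066 for isl2a, −0.098 to 0.12 for isl2b, −0.038 to 0.24 for chata and −0.081 to 0.21 for nefma. In the pooled knockdown lines mnx1 was at 0.095 without tardbp 3TG replicate 3. Over 4 lines, without that library or lin28a 3TG replicate 2, values were −0.0023 to 0.023 for mnx1, 0.097 to 0.15 for chata, −0.0064 to 0.072 for slc18a3a, 0.026 to 0.055 for slc5a7a and 0.080 to 0.086 for nefma.

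Deviations of same-numbered 3TG and 2TG libraries had correlations of −0.34 to 0.38. In lin28a they were 0.38, 0.054 and 0.24, each above the largest with another number (−0.22, 0.022 and 0.18). In smn1 and sox9b this held for replicate 1 only (0.29 and 0.26), and in tardbp for none. These values do not settle whether the replicate numbers pair the libraries. The replicate block moved the tardbp count as given above. Depth is unknown, and 3 libraries a group limit the precision throughout.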
